A study of Mus musculus with 12 samples.

Results

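The integrin and laminin chains were described across 12 RNA-seq libraries of cultured mouse proximal tubule (PT) cells. Members were all protein-coding genes whose symbol names an integrin α chain (Itga), an integrin β chain (Itgb) or a laminin α, β or γ chain (Lama, Lamb, Lamc), and each gene was represented by its transcript with the highest total count. This gave 36 genes of 25514 in the data, with 17 α and 8 β integrin chains and 11 laminin chains. Of these, 25 passed the filter on low counts and were tested, namely 10 α and 7 β integrin chains and 8 laminin chains.

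The study asked how loss of the type II TGF-β receptor (TβRII, the product of Tgfbr2) changes the response of PT cells to injury. All cells came from male mice that carried floxed Tgfbr2 alleles and the H2ts6 transgene of the Immorto-mouse, a heat-labile T antigen that keeps cells dividing under interferon-γ at a lowered temperature, and were moved to body temperature without interferon-γ before the experiment. TβRII flox/flox PT cells (H2ts6;Tgfbr2fl/fl) kept the receptor gene, and TβRII-/- PT cells (H2ts6;Tgfbr2-/-) were derived from such cells by adenoviral Cre in culture. Each line was sequenced in complete medium (untreated) and after 24 h of H2O2 in serum-free medium, preceded by serum starvation according to the methods, which gave 4 groups of 3 libraries. The labels give the dose of H2O2 as 200 mM and the methods as 200 μM. H2O2 and withdrawal of serum came together and cannot be told apart, and neither can loss of TβRII and any other difference between the lines, since no other line of either genotype is described. The labels do not say whether replicates were separate cultures, and the methods speak of independent experiments or biological replicates for cell work in general but not for these libraries, so the p-values measure the spread between these libraries, which may be technical.

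Integrins are receptors of 1 α and 1 β chain that span the cell membrane and tie the extracellular matrix to the cytoskeleton, and the β1 chain is shared by most α chains. Laminins are heterotrimers of 1 α, 1 β and 1 γ chain that polymerise into the basement membrane on which tubular epithelium rests. The laminin of mature tubular basement membrane contains the α5, β1 or β2 and γ1 chains, and integrins that bind it include α3β1 and α6β1. Integrins that bind laminin with the α3 and β3 chains include α6β4, the integrin of hemidesmosomes in stratified epithelium. Integrins αvβ6 and αvβ8 bind the latency peptide of TGF-β and activate it.

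Gene totals were between 15870155 and 20857618 counts per library. Tgfbr2 was counted in every library, at 7562 to 9248 normalized counts in untreated TβRII flox/flox cells and 6358 to 6782 in untreated TβRII-/- cells. After H2O2 it had 13275 to 13918 in TβRII flox/flox cells and 7116 to 7311 in TβRII-/- cells. As a whole transcript was counted, the floxed part could not be read separately. According to the methods, the authors verified the deletion by immunoblot and RNA-seq. The cells did not all carry the markers of their labelled type. Of 12 proximal tubule markers, Lrp2, the gene of megalin, Aqp1, the gene of a water channel, and Mme had 10901 to 19333, 4392 to 14444 and 4700 to 10545 counts per library. Slc22a6 was at 0 counts in every library, and Slc34a1 and Hnf4a had at most 2 and 1 counts in any library. By the rule for a call given below, 7 of the 8 tested were lower in untreated TβRII-/- cells, beside 11.8% of all genes tested. The summed level of these 12 markers was 31810.0 to 39109 normalized counts in untreated and 40336 to 43305 in H2O2-treated TβRII flox/flox cells, and 20645 to 21779.7 in untreated and 20690.1 to 21938 in H2O2-treated TβRII-/- cells. Of 7 epithelial markers, 6 were higher by the same rule in untreated TβRII-/- cells, beside 16.3% of all genes tested. Among them was Cdh1, the gene of E-cadherin, with 1.8 ± 1.24 and 1111 ± 62.8 normalized counts (SD, n = 3). The summed level of the 7 markers was 17575 to 19106 and 20060.1 to 21441 in untreated and H2O2-treated TβRII flox/flox cells against 37462 to 40499.6 and 37355 to 37986 in TβRII-/- cells. Of the markers of other cells, Pecam1 and Nphs1 had at most 1 and 0 counts, while Kdr had 19 to 558, Podxl 28 to 543, Wt1 154 to 246 and Acta2 160 to 2702. The 7 fibroblast and pericyte markers summed to 55.9 to 69.4 normalized counts in untreated TβRII flox/flox and 16.5 to 29.3 in untreated TβRII-/- cells. The 4 smooth muscle markers summed to 1158 to 1267 in untreated TβRII flox/flox and 2856 to 3258 in untreated TβRII-/- cells. The 5 endothelial markers, of which 1 was tested, summed to 127 to 138 in untreated TβRII flox/flox and 465 to 586 in untreated TβRII-/- cells, and the 4 podocyte markers, of which 2 were tested, to 266 to 299.8 and 714 to 742. The part of these marker differences in the integrin and laminin differences between the lines was not tested. In such bulk samples, fewer cells of a type and less RNA per cell cannot be told apart.

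Levels are given as normalized counts, that is, counts scaled to a common effective library size of 17351835. For comparison between genes they were divided by the length of the counted transcript, in kilobases. On that per-length scale, Itgb1, the common β chain, led in untreated TβRII flox/flox cells with 9307 ± 603 normalized counts per kb (SD, n = 3), followed by Itga3, the laminin-binding α3 chain, with 3154 ± 383. The chains of tubular basement membrane laminin had 1569.8 ± 172 for Lamb1, 1154 ± 135 for Lamc1, 908 ± 126 for Lama5 and 745 ± 111 for Lamb2 on the same per-length scale. Itgb5 and Itgav, which together form the vitronectin receptor αvβ5, had 1385 ± 142 and 909 ± 59.5 normalized counts per kb, so that Itgb5 lay between Lamb1 and Lamc1 and Itgav between Lamc1 and Lama5. Among these 8 leading chains, the neighbours Lamb1 and Itgb5, Itgb5 and Lamc1, Itgav and Lama5, and Lama5 and Lamb2 were closer than the sum of their SDs. The chains Lama3 and Lamb3 had only 10.7 ± 1.86 and 18.3 ± 2.58 normalized counts per kb in these cells.

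**Figure D1:**
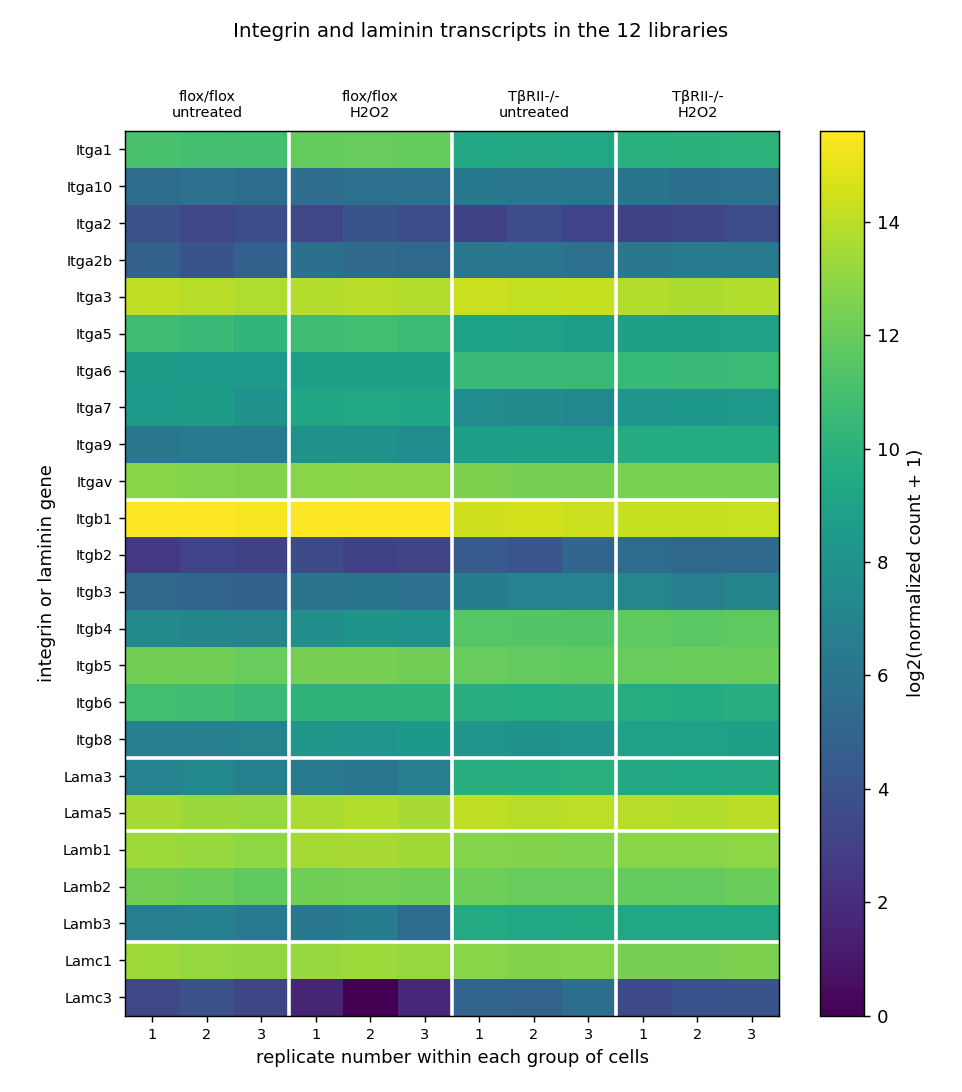
Levels of 24 of the 25 tested genes in the 12 libraries, with genes in rows (α integrin, β integrin, laminin α, β and γ chains from top to bottom), libraries in columns by group and replicate number, and colour giving log2 of the normalized count plus 1. Itgb1 and Itga3 are the brightest integrin rows in every library, and the rows of Itgb4, Lama3 and Lamb3 are darker in all 6 TβRII flox/flox libraries than in all 6 TβRII-/- libraries.

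The first comparison set untreated TβRII-/- cells against untreated TβRII flox/flox cells. The genes of the laminin α3 and β3 chains and of integrin α6β4 were higher in TβRII-/- cells by 4.1-fold to 19.5-fold. The genes of the β1 chain and of its partners α1, α5 and α7 were lower by 1.88-fold to 3.12-fold, and the gene of β6 was lower by 1.97-fold. A gene was called changed when edgeR's quasi-likelihood test gave a Benjamini-Hochberg adjusted p under 0.05 and the fold change was at least 1.5. By this rule 17 of the 25 tested members were called, 12 higher and 5 lower, while 28.0% of all 12971 genes tested were called (16.3% higher and 11.8% lower). The median log2 fold change of the 25 was 0.57 beside 0.01 for all genes, and the median of its absolute value was 1.21 beside 0.34.

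**Figure D2:**
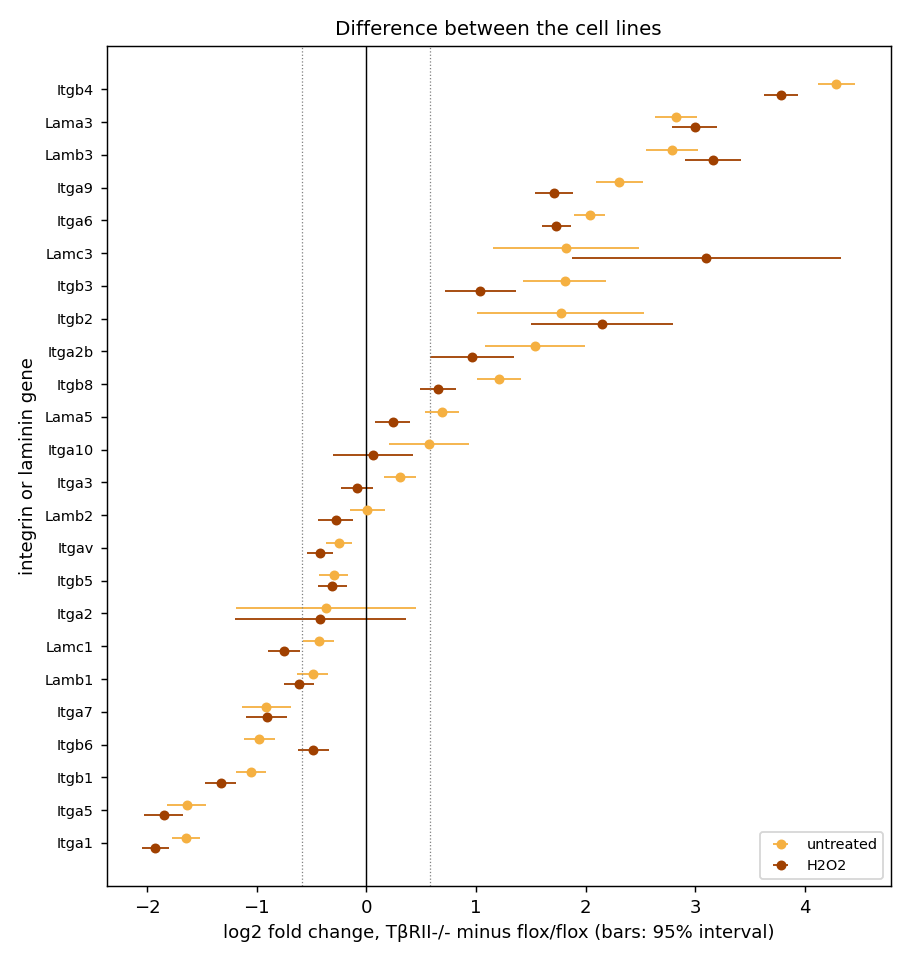
Log2 fold change of TβRII-/- over TβRII flox/flox cells for 24 of the 25 tested genes, with points for untreated (light) and H2O2-treated (dark) cells, bars for the 95% interval and dotted lines at a fold change of 1.5 in either direction. Itgb4 lies at 4.29 and 3.78 on the right, and Itga1 at -1.64 and -1.92 on the left, and the H2O2 value of Lamc3 rests on at most 3 counts in each TβRII flox/flox library.

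Of the tested members, Itgb4 had the greatest difference between the untreated lines. Itgb4 (ENSMUSG00000020758) had 159, 141 and 123 normalized counts in the 3 untreated TβRII flox/flox libraries and 2924, 2709 and 2632 in the 3 untreated TβRII-/- libraries. The groups lay far apart, with a mean 19.5-fold higher in TβRII-/- cells (log2 fold change 4.29, SE 0.09, adjusted p = 1.9e-28). Of its exon bases 19.5% also lie in Galk1 or Gm73820 on the opposite strand, whose reads cannot be told apart if strand was not used in counting. Itga6, whose product pairs with β4 or β1, had 389, 343 and 345 normalized counts against 1508, 1466 and 1451. The ranges did not overlap, and the fold change of 4.1 was smaller than that of its partner (log2 fold change 2.04, SE 0.07, adjusted p = 4.42e-22). Divided by length, Itgb4 rose from 23.4 ± 3.01 to 458 ± 25.1 normalized counts per kb and Itga6 from 81.4 ± 5.93 to 334 ± 6.68, so that Itgb4 was the lower of the pair in TβRII flox/flox cells and the higher in TβRII-/- cells.

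The α3 and β3 chains of a laminin ligand of α6β4 stood apart in the same direction. Lama3 (ENSMUSG00000024421), the α3 chain that integrins bind, had 119, 157 and 116 normalized counts in TβRII flox/flox libraries and 927, 885 and 954 in TβRII-/- libraries (log2 fold change 2.82, SE 0.10, adjusted p = 2.79e-22). Lamb3 (ENSMUSG00000026639), the β3 chain, had 107, 114 and 86 against 749, 649.6 and 722 (log2 fold change 2.79, SE 0.12, adjusted p = 1.28e-19). For both chains the lowest TβRII-/- library was above the highest TβRII flox/flox library. On the per-length scale of levels, Lamb3 had 127 ± 9.19 and Lama3 75.4 ± 2.86 normalized counts per kb in TβRII-/- cells. In GRCm38.p6, Lamb3 lies at chr1:193294353-193343878, Itgb4 at chr11:115974725-116008412 and Itga6 at chr2:71786886-71858427. The median log2 fold change of the 25 nearest tested genes was -0.08 around Lamb3, -0.24 around Lama3 and 0.07 around Itgb4, where that of all tested genes was 0.01. It was 0.33 around Itga6, with 0.30 for all tested genes of its chromosome, so that its neighbours went the same way as Itga6 by a smaller amount.

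**Figure D3:**
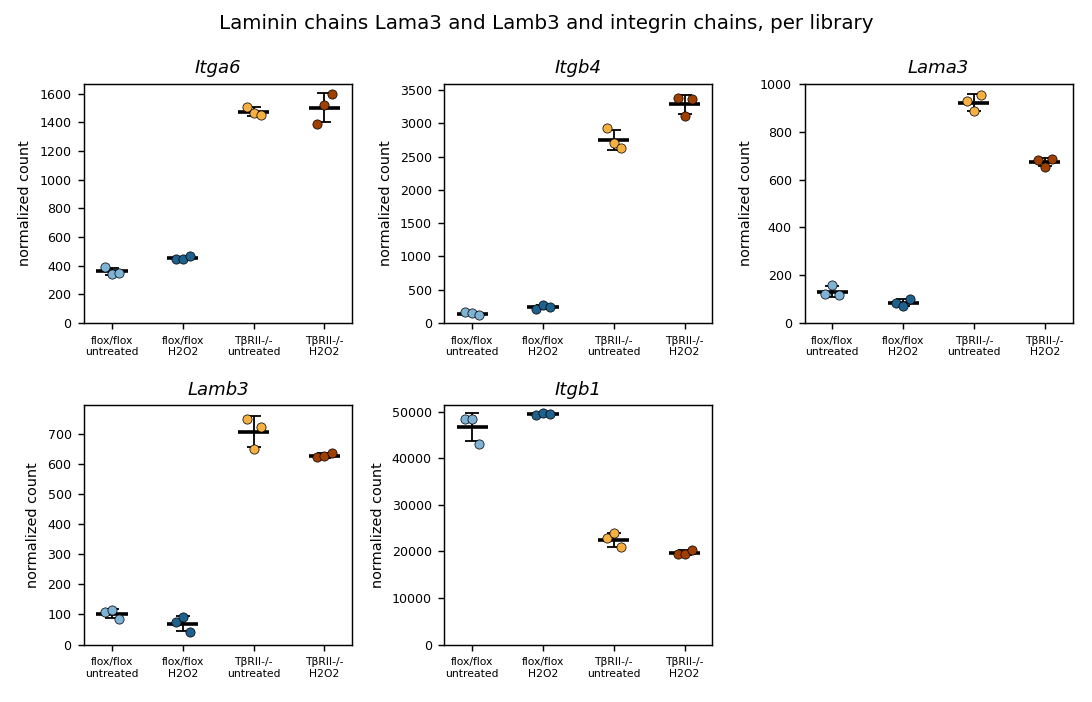
Normalized counts per library (points) with mean and SD (lines, n = 3) for the α6 and β4 integrin chains, the laminin chains Lama3 and Lamb3, and Itgb1 for contrast, with a separate linear axis from 0 for each gene. In the first 4 panels all TβRII-/- libraries lie above all TβRII flox/flox libraries, and in the Itgb1 panel they lie below.

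Lama5 and the weakly expressed Lamc3 were also called in untreated cells. Lama5, the α chain of tubular basement membrane laminin, had 12035, 9859 and 9304 normalized counts in TβRII flox/flox libraries and 18033, 15674 and 16634 in TβRII-/- libraries. The groups did not overlap and the difference was 1.61-fold (log2 fold change 0.69, SE 0.08, adjusted p = 6.99e-09). The 25 nearest tested genes of Lama5 had a median log2 fold change of 0.33 and its chromosome one of 0.30, and the part of this shift in the value of Lama5 was not tested. Its usual partners went the other way by less than the fold limit. Lamb1 had 10029, 9235 and 8045 normalized counts in TβRII flox/flox libraries and 6779.6, 6386 and 6272 in TβRII-/- libraries (log2 fold change -0.49, SE 0.07, adjusted p = 3.5e-07), and Lamc1 had 10326, 8938 and 8218 against 7245, 6289 and 6813 (log2 fold change -0.43, SE 0.07, adjusted p = 4.99e-06). Neither gene's groups overlapped. The median log2 fold change of the 25 nearest tested genes was -0.42 around Lamc1, close to its own value, and 0.24 around Lamb1. The part of this shift in the value of Lamc1 was not tested. Lamb2, the β2 chain, had 4749.9, 4325 and 3522 against 4622, 4012 and 4057 normalized counts with overlapping libraries (95% interval of the log2 fold change -0.15 to 0.17). By their means in normalized counts per kb, Lamb1 and Lamc1 were above Lama5 in TβRII flox/flox cells, and Lama5, with 1466 ± 104, was above Lamb1, Lamc1 and Lamb2 in TβRII-/- cells. Lama1, the α1 chain of the embryonic and proximal tubular basement membrane, had 0 counts in 7 of 12 libraries and at most 4 in any and was not tested.

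Among the integrin chains that were lower, Itgb1 had 48402, 48360.3 and 43149 normalized counts in TβRII flox/flox libraries and 22797, 23894 and 20866 in TβRII-/- libraries. All 3 TβRII-/- libraries were below all 3 TβRII flox/flox libraries, by 2.07-fold on average (log2 fold change -1.05, SE 0.07, adjusted p = 1.51e-14), where the 25 nearest tested genes had a median log2 fold change of -0.38, and Itgb1 still had the top level per kb of all members, with 4494 ± 306. Itga5, whose product forms the fibronectin receptor α5β1, had 1727, 1555 and 1241 against 524, 499 and 431 normalized counts. The highest TβRII-/- library was below the lowest TβRII flox/flox library (log2 fold change -1.64, SE 0.09, adjusted p = 8.74e-17). Itga1, the chain of the collagen receptor α1β1, had 2209, 1948 and 2041 against 662, 683 and 642 (log2 fold change -1.64, SE 0.06, adjusted p = 1.11e-20). Its ranges were as clearly separate, although 6.15% of the exon bases counted for Itga1 are shared with Gm49395 on the same strand and 20.8% with Mocs2 or Gm61371 on the opposite strand. Itga7, a laminin-binding chain best known from muscle, had 348, 357 and 252 against 184, 167 and 157 normalized counts without overlap (log2 fold change -0.91, SE 0.11, adjusted p = 2.09e-08).

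The α3 chain, the most abundant α chain on the per-length scale, differed little. Itga3 had 17512, 15762 and 13712 normalized counts in TβRII flox/flox libraries and 20691, 18429 and 19136 in TβRII-/- libraries. The ranges did not overlap and the adjusted p was under 0.05, but the fold change of 1.24 was under the limit (log2 fold change 0.31, SE 0.07, adjusted p = 0.000527). Itga9, the chain of α9β1, a receptor of tenascin and osteopontin, was the α chain with the greatest fold change. It had 74.7, 90.1 and 89.3 normalized counts in TβRII flox/flox libraries and 427, 418 and 414 in TβRII-/- libraries, a separation of 4.96-fold (log2 fold change 2.31, SE 0.11, adjusted p = 2.35e-18).

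RefSeq promoter windows of 250 bases before to 50 bases after a transcription start were available in GRCm38.p6 for 23 of the 36 members (26 windows). They are shown for a laminin and an integrin chain that were higher in TβRII-/- cells (Lamb3, with 2 starts whose windows overlap, and Itgb8) and for 2 integrin chains that were lower (Itgb1 and Itga5). Capitals mark every match on either strand to the SMAD-binding letters CAGAC or GTCTG, the AP-1 letters TGANTCA, and the TEAD letters GGAATG or CATTCC, with N for any base. The starts of Itgb8, Itgb1 and Itga5 are at the 5′ end of the RefSeq gene, and those of Lamb3 lie 7641 and 7890 bases inside it.
Lamb3 upstream start (chr1:193301744-193302043, plus strand, 59.3% GC): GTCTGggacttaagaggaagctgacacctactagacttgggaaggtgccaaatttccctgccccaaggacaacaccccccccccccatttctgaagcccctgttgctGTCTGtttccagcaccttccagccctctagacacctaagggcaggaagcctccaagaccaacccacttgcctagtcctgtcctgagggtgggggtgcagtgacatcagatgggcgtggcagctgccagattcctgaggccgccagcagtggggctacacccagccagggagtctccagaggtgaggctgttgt
Lamb3 downstream start (chr1:193301993-193302292, plus strand, 59.3% GC): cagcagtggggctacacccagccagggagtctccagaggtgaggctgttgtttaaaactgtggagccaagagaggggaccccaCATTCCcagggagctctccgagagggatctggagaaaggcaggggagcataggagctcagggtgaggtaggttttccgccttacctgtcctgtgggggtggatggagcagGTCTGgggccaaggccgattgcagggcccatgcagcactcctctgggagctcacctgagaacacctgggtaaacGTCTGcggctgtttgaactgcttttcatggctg
Itgb8 (chr12:119238227-119238526, minus strand, 60.7% GC): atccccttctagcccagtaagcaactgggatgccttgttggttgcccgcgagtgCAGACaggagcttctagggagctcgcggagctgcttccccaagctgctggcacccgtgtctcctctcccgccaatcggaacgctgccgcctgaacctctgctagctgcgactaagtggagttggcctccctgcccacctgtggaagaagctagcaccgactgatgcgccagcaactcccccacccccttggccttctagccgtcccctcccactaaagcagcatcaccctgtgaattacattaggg
Itgb1 (chr8:128685404-128685703, plus strand, 67.3% GC): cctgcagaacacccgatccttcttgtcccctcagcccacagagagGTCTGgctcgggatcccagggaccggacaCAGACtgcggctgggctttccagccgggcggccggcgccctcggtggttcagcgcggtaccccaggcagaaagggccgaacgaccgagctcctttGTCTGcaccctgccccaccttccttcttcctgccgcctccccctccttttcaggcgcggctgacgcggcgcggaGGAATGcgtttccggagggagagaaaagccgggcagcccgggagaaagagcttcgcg
Itga5 (chr15:103366742-103367041, minus strand, 58.7% GC): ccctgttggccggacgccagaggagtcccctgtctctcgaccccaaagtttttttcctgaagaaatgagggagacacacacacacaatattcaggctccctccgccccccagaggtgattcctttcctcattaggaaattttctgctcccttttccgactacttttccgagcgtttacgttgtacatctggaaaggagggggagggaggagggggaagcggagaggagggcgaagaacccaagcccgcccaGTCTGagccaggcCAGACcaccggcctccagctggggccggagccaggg

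The SMAD letters were in 18 of the 26 member windows and in 49.6% of all 32851 promoter windows of the same length. The AP-1 letters were in 3 of 26 (Itga3, Itga9 and Itgax, with the window of Itga3 at a start 7646 bases and that of Itga9 at a start 104983 bases inside the gene) and in 7.81% of all, and the TEAD letters were in 3 of 26 (Itga10, Itgb1 and Lamb3) and in 14.7% of all. A match describes letters only, and windows of genes that were higher and of genes that were lower in TβRII-/- cells both held SMAD matches.

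The αv chain was shared by 5 β chains that moved in different directions between the untreated lines. Itgav itself had 7216, 6574 and 6373 normalized counts in TβRII flox/flox libraries and 5934, 5478 and 5509 in TβRII-/- libraries, without overlap and with a fold change under the limit (log2 fold change -0.25, SE 0.06, adjusted p = 0.000514). Itgb6, the β chain of the TGF-β-activating αvβ6, had 1873, 1807 and 1498 against 937, 822 and 875 normalized counts. All TβRII-/- libraries were lower, by 1.97-fold (log2 fold change -0.98, SE 0.07, adjusted p = 1.85e-13). Itgb8, the β chain of the other activating integrin αvβ8, had 112, 111 and 123 against 275, 244 and 280.5. Here all TβRII-/- libraries were higher, by 2.31-fold (log2 fold change 1.21, SE 0.10, adjusted p = 6.96e-12). Per kb, Itgb6 remained above Itgb8 in both lines, at 359 ± 41.6 against 13.7 ± 0.769 in TβRII flox/flox cells and 183 ± 12 against 31.7 ± 2.34 in TβRII-/- cells. Itgb5 had 4968, 4792 and 4075 against 3953, 3773 and 3524 normalized counts, lower in all TβRII-/- libraries by less than the fold limit (log2 fold change -0.30, SE 0.07, adjusted p = 0.000285). Itgb3, the β chain of the vitronectin receptor αvβ3 and of the platelet receptor αIIbβ3, rose from 35.8, 32.3 and 28 to 98.3, 119 and 119.7 normalized counts (log2 fold change 1.81, SE 0.19, adjusted p = 9.66e-10).

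**Figure D4:**
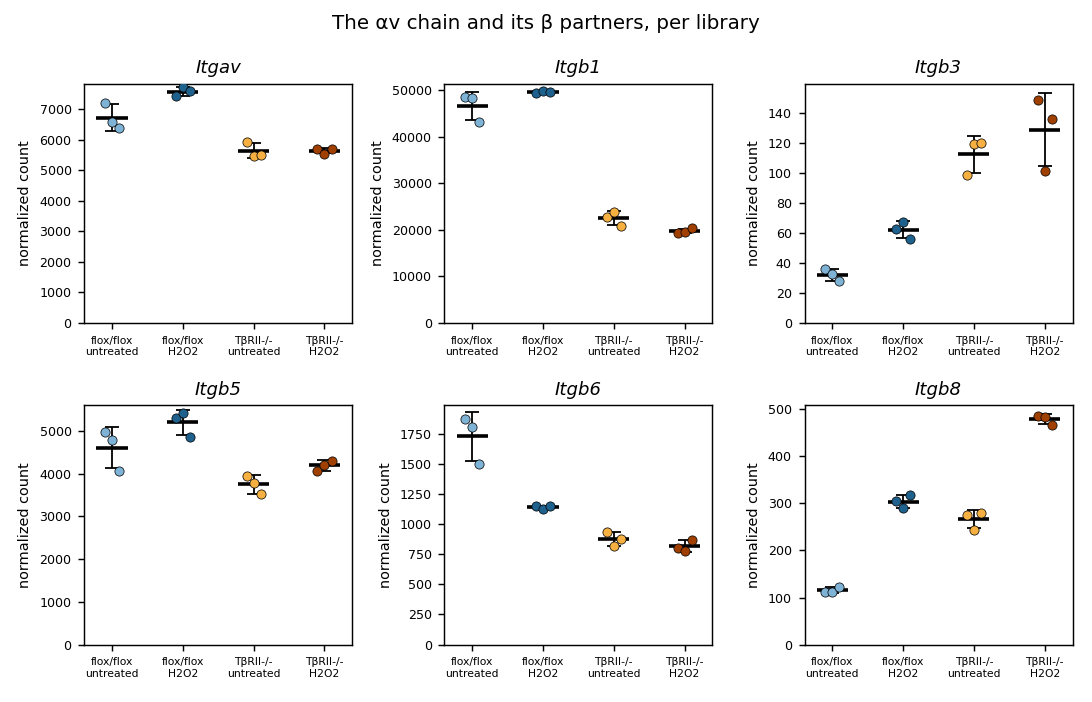
Normalized counts per library (points) with mean and SD (lines, n = 3) for Itgav and the β chains that pair with αv, on separate linear axes from 0. Itgb6 and Itgb1 are lower in TβRII-/- cells and Itgb3 and Itgb8 are higher, while Itgav spans 5478 to 5934 in untreated TβRII-/- and 6373 to 7216 in untreated TβRII flox/flox libraries.

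Most chains that are typical of blood cells were at or near 0. Itga4 and Itgax had 0 counts in all 12 libraries, which allows up to 3 counts in each, and Itgae, Itgal, Itgam and Itgb7 had at most 5, 4, 9 and 9 counts in any library. Of 9 leukocyte markers none was tested, with Tyrobp, Adgre1 and Cd3e at 0 in every library, and their summed level was 13.6 to 29.8 normalized counts over all groups. Itgb2, the β2 chain of leukocytes, was weakly counted with 5.26, 7.79 and 7.53 normalized counts in untreated TβRII flox/flox and 20.9, 16.5 and 33.5 in untreated TβRII-/- libraries (log2 fold change 1.77, SE 0.39, adjusted p = 0.000188). Itga2b, the αIIb chain of platelets, had 26.3, 15.6 and 26.9 against 75.3, 69.7 and 56.5 (log2 fold change 1.54, SE 0.23, adjusted p = 8.54e-07). Lamc3, the γ3 chain, had 9.47, 13.4 and 8.6 against 32.4, 30 and 48.8 normalized counts (log2 fold change 1.82, SE 0.34, adjusted p = 2.35e-05). Itgb2, Itga2b and Lamc3 were at or below 45.2, 89.5 and 48.8 normalized counts in every library, so that counting error weighs on their values. Itga10, a collagen-binding chain with 34.5% of its exon bases shared with Gm42957, had 48.3 ± 7.28 against 71.7 ± 5.83 (log2 fold change 0.57, SE 0.19, adjusted p = 0.00859), and Itga2, the α chain of the collagen receptor α2β1, had 11.5 ± 2.41 against 8.87 ± 2.39 (95% interval of the log2 fold change -1.19 to 0.45). Itga8 and Itga11, known from mesenchymal cells, had at most 5 counts in any library, and the laminin chains Lama2 and Lama4 at most 12 and 11.

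Genes that act with integrins and laminins were read from lists. Of 12 other basement membrane genes 11 were tested in untreated cells, with 1 higher and 7 lower in TβRII-/- cells and a median log2 fold change of -0.91, beside the 16.3% higher and 11.8% lower over all genes. The 7 lower genes were Hspg2, the gene of perlecan, and the 6 collagen IV chains, among them Col4a1 with 34727 ± 4414 and 4349 ± 288 normalized counts (log2 fold change -3.00, SE 0.09, adjusted p = 3.23e-24). The higher gene was Nid2, the gene of nidogen-2, which links laminin to collagen IV, with 139 ± 18 and 1631 ± 50.5 (log2 fold change 3.55, SE 0.08, adjusted p = 6.63e-27). Of 11 soluble ligands of integrins that bind the RGD motif 10 were tested, with 7 lower and a median log2 fold change of -1.49, beside the same shares. Fn1, the gene of fibronectin and ligand of α5β1, had 102997 ± 17307 and 9185 ± 455 normalized counts (log2 fold change -3.49, SE 0.10, adjusted p = 1.83e-24), and Npnt, the gene of the α8β1 ligand nephronectin, had 16887 ± 1662 and 8308 ± 108 (log2 fold change -1.02, SE 0.07, adjusted p = 1.48e-14).

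Of 32 genes of integrin adaptors and activators 28 were tested, with 2 higher and 5 lower in untreated TβRII-/- cells and a median log2 fold change of -0.08. Those 7 of 28 are near the 28.0% called over all genes. Tln2, 1 of 2 talins that activate integrins, had 1981 ± 156 and 326 ± 6.53 normalized counts (log2 fold change -2.60, SE 0.08, adjusted p = 1.4e-23), and Vcl, Zyx, Tns1 and Flna, which tie adhesion sites to actin, were the other 4 lower genes. The 2 higher genes were Lims2, a partner of integrin-linked kinase, and Tns2. Of 4 hemidesmosome genes besides α6β4, Col17a1 was not tested and the other 3 were within the fold limit, with log2 fold changes of -0.15 for Plec, the gene of plectin, -0.56 for Dst and -0.19 for Cd151. Of 7 laminin receptors that are not integrins all were tested and 1 was called, beside 28.0% over all genes. It was Bcam, a receptor of the laminin α5 chain, with 5999.7 ± 492 and 13503 ± 1049 normalized counts (log2 fold change 1.17, SE 0.07, adjusted p = 8e-16).

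The second comparison set the lines against each other after H2O2. Again 17 of 25 members were called, 11 higher and 6 lower in TβRII-/- cells, beside 30.7% of all genes tested (17.3% higher and 13.4% lower). The 2 comparisons between lines do not share libraries. Itgb4 had 212, 263 and 239.5 normalized counts in H2O2-treated TβRII flox/flox libraries and 3378, 3117 and 3362 in H2O2-treated TβRII-/- libraries, 13.8-fold higher (log2 fold change 3.78, SE 0.08, adjusted p = 4.5e-28). Lama3, Lamb3 and Itga6 had log2 fold changes of 2.99, 3.16 and 1.73, and Itga9, Itgb3 and Itgb8 had 1.71, 1.04 and 0.66, all called. Among the lower members Lamc1 and Lamb1 now passed the fold limit. Lamc1 had 9269.9, 10130.3 and 9034 against 5446, 5474 and 5978 normalized counts, without overlap (log2 fold change -0.75, SE 0.07, adjusted p = 1.21e-10). Lamb1 had 11672, 12046 and 10810.5 against 7389, 7201 and 7978 (log2 fold change -0.61, SE 0.07, adjusted p = 3.79e-09), and without replicate 2 of H2O2-treated TβRII-/- cells its log2 fold change was -0.58, just inside the fold limit. Itgb1, Itga1, Itga5 and Itga7 were lower by 2.51-fold, 3.79-fold, 3.6-fold and 1.88-fold. The called members also included the weakly counted Itgb2, with 11.2, 7.23 and 8.02 against 45.2, 35.4 and 38.8 normalized counts, Itga2b, with 52.8, 40.3 and 35.5 against 75.7, 87.3 and 89.5, and Lamc3, with 2.03, 0 and 2.29 against 10.2, 14.2 and 14.9. Itgb6 and Lama5, called in untreated cells, were within the fold limit after H2O2, at log2 fold changes of -0.48 and 0.24. Of the 3 tested hemidesmosome genes besides α6β4, 1 was called, lower in TβRII-/- cells, beside the same 30.7% of all genes. The median log2 fold change of the 3 was -0.56.

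The third comparison asked what H2O2 in serum-free medium changed in TβRII flox/flox cells. Of the 25 tested members 11 were called, 7 higher and 4 lower, beside 8.24% of all genes tested (5.68% higher and 2.56% lower), and the median absolute log2 fold change was 0.36 beside 0.21 for all genes. Markers of other cells also moved with H2O2. The summed level of the endothelial markers, nearly all of it Kdr, was between 22.7 and 26.4 normalized counts after H2O2 in TβRII flox/flox cells (untreated, 127 to 138) and between 39.3 and 65.6 in TβRII-/- cells (untreated, 465 to 586). That of the smooth muscle markers was between 592 and 606 (untreated, 1158 to 1267) and between 738 and 879 (untreated, 2856 to 3258). The fibroblast and pericyte markers went the other way, to between 76.4 and 96.3 (untreated, 55.9 to 69.4) and between 40.6 and 50.7 (untreated, 16.5 to 29.3). The part of these in the integrin and laminin changes was not tested. The higher members were Itga1, Itga2b, Itga7, Itga9, Itgb3, Itgb4 and Itgb8, and among the lower ones were Itgb6, Lama3 and Lamc3. Itga9 went from 74.7, 90.1 and 89.3 to 258, 256 and 194 normalized counts, with all treated libraries above all untreated ones (log2 fold change 1.48, SE 0.12, adjusted p = 1.47e-11). Itgb8 went from 112, 111 and 123 to 305, 289 and 317, again with no overlap (log2 fold change 1.40, SE 0.10, adjusted p = 1.54e-12). Itga1 went from 2066 ± 132 to 3911 ± 115 normalized counts (log2 fold change 0.92, SE 0.06, adjusted p = 5e-14) and Itga7 from 319 ± 58.5 to 601 ± 16.4 (log2 fold change 0.91, SE 0.10, adjusted p = 6.27e-09). Itgb4 went from 159, 141 and 123 to 212, 263 and 239.5 without overlap (log2 fold change 0.76, SE 0.11, adjusted p = 1.22e-06), a level that remained below every TβRII-/- library. Itgb3 went from 35.8, 32.3 and 28 to 62.9, 67.1 and 56.2 (log2 fold change 0.96, SE 0.22, adjusted p = 0.000601) and Itga2b from 26.3, 15.6 and 26.9 to 52.8, 40.3 and 35.5 (log2 fold change 0.90, SE 0.25, adjusted p = 0.00481), both also without overlap.

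Of the laminin chains with lower levels after H2O2 in TβRII flox/flox cells, Lama3 went from 119, 157 and 116 to 84.2, 70.2 and 99.7 normalized counts (log2 fold change -0.63, SE 0.14, adjusted p = 0.000406). Its groups did not overlap, but without replicate 2 of the untreated or of the treated cells its log2 fold change was -0.47 or -0.51, inside the fold limit. Lamb3 went from 107, 114 and 86 to 74.1, 90.9 and 42.4, with overlapping groups and a fold change just under the limit (log2 fold change -0.55, SE 0.17, adjusted p = 0.0102), and it passed the limit without replicate 3 of the untreated cells (-0.65) or replicate 2 of the treated cells (-0.79). Itgb6 went from 1873, 1807 and 1498 to 1146, 1121 and 1146 normalized counts (log2 fold change -0.60, SE 0.07, adjusted p = 4.6e-08). The treated libraries were lower and closer together than the untreated ones, and without replicate 1 or 2 of the untreated cells the log2 fold change was -0.53 or -0.56, inside the fold limit. Lamc3 had 2.03, 0 and 2.29 normalized counts after H2O2, at most 3 counts in each library, so no fold change is given against it.

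**Figure D5:**
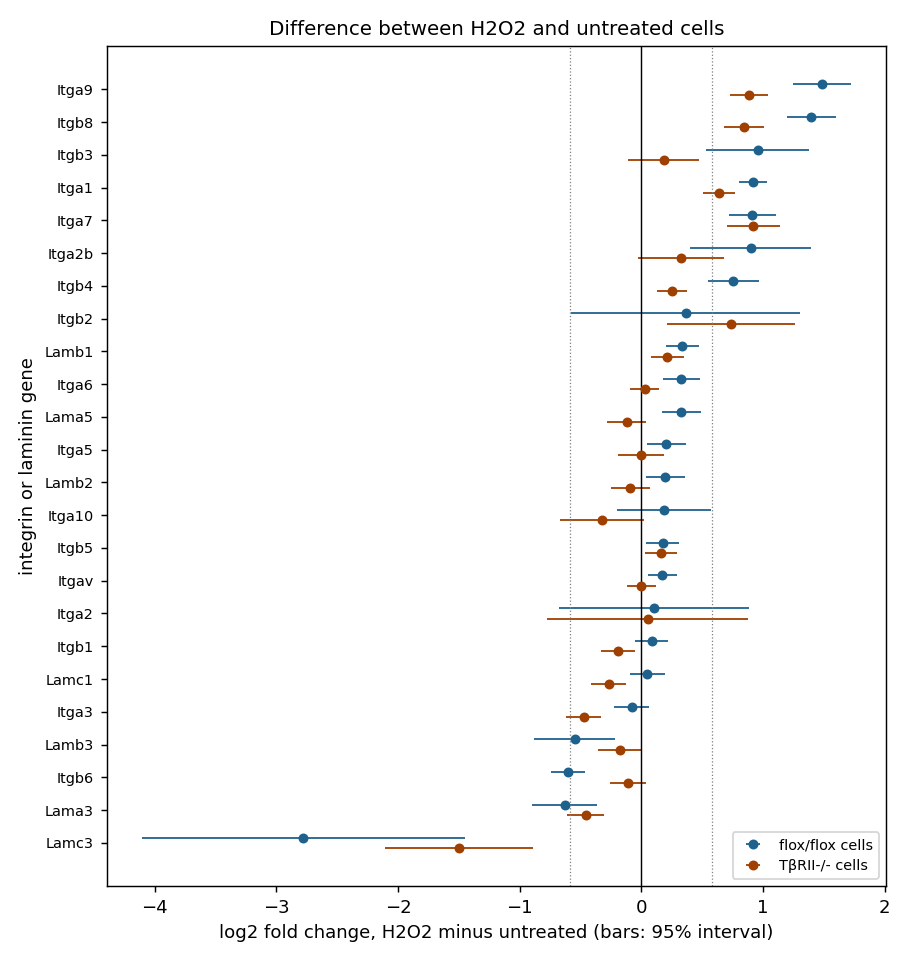
Log2 fold change of H2O2-treated over untreated cells for 24 of the 25 tested genes in TβRII flox/flox (blue) and TβRII-/- (brown) cells, with bars for the 95% interval and dotted lines at a fold change of 1.5 in either direction. Itga9 lies at 1.48 and 0.89 and Itgb6 at -0.60 and -0.11; the interval of Lamc3 in TβRII flox/flox cells rests on at most 3 counts per treated library.

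In TβRII-/- cells H2O2 gave 6 called members of 25, 5 higher and 1 lower, beside 8.33% of all genes tested (4.56% higher and 3.76% lower). The higher members were Itga1, Itga7, Itga9, Itgb2 and Itgb8, and the lower one was Lamc3. Itga9 went from 427, 418 and 414 to 774, 768 and 788 normalized counts (log2 fold change 0.89, SE 0.08, adjusted p = 2.49e-10) and Itgb8 from 275, 244 and 280.5 to 486, 483 and 466 (log2 fold change 0.85, SE 0.08, adjusted p = 1.57e-09). Both were separate from their untreated libraries. Itga7 went from 184, 167 and 157 to 296, 313 and 353 (log2 fold change 0.92, SE 0.11, adjusted p = 6.74e-08), and Itga1 from 662 ± 20.1 to 1032 ± 55.5 (log2 fold change 0.64, SE 0.07, adjusted p = 3.46e-09). Lamc3 went from 32.4, 30 and 48.8 to 10.2, 14.2 and 14.9 normalized counts, a 2.82-fold fall (SE 0.31 on the log2 scale, adjusted p = 0.000277). Itgb2 went from 20.9, 16.5 and 33.5 to 45.2, 35.4 and 38.8 without overlap (log2 fold change 0.74, SE 0.27, adjusted p = 0.0279). Itga3 went from 20691, 18429 and 19136 to 14094, 13296 and 14569 without overlap, inside the fold limit (log2 fold change -0.47, SE 0.07, adjusted p = 6.15e-06). Inside the fold limit, Itgb1, Lamc1 and Lama3 also had adjusted p-values under 0.05, with log2 fold changes of -0.19, -0.27 and -0.46, and so did Itgb4 and Lamb1, with 0.25 and 0.22.

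The last comparison tested the difference between the H2O2 effects of the lines, as the effect in TβRII-/- cells minus that in TβRII flox/flox cells, called at an adjusted p under 0.05 without a fold limit. Of 25 members 10 were called, 2 with a positive and 8 with a negative difference, beside 10.2% of all genes tested (3.90% positive and 6.28% negative), and 6 were called without replicate 2 of H2O2-treated TβRII-/- cells. Itgb6 had a positive difference. H2O2 left it at 798, 778 and 870.1 normalized counts in TβRII-/- cells, where its untreated libraries had 937, 822 and 875, and the difference of the effects was 0.49 (SE 0.10, adjusted p = 0.00185).

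The negative differences were in genes that H2O2 raised less, or lowered more, in TβRII-/- cells. They were -0.60 (SE 0.15, adjusted p = 0.00769) for Itga9, -0.55 (SE 0.13, adjusted p = 0.00693) for Itgb8 and -0.50 (SE 0.12, adjusted p = 0.00826) for Itgb4. With counts summed over all transcripts of a gene the calls of Itga9 (-0.56, adjusted p = 0.0551) and Itgb8 (-0.37, adjusted p = 0.119) were lost. Lama5, which had 12849, 14349.9 and 12013 normalized counts in H2O2-treated TβRII flox/flox libraries and 15360.0, 14607 and 16362 in H2O2-treated TβRII-/- libraries, had a difference of -0.45 (SE 0.11, adjusted p = 0.00951). Itga3 had -0.39, with an adjusted p of 0.0139, and lost the call without replicate 1 of untreated TβRII-/- cells (adjusted p = 0.0514) or replicate 2 of H2O2-treated TβRII-/- cells (adjusted p = 0.0542). Itga1, Itga6 and Lamc1 were near the threshold, with adjusted p-values of 0.0373, 0.0494 and 0.0456. Leaving out any 1 of 6, 9 and 7 libraries, in the same order, ended their calls. Itga1 lost its call without replicate 2 of untreated TβRII flox/flox, replicate 1 or 2 of untreated TβRII-/-, replicate 2 of H2O2-treated TβRII flox/flox or replicate 1 or 2 of H2O2-treated TβRII-/- cells (differences of -0.28 to -0.24, adjusted p up to 0.132). Lamc1 lost its call without those libraries save replicate 2 of untreated TβRII-/- cells, and also without replicate 3 of untreated TβRII flox/flox or of untreated TβRII-/- cells (-0.32 to -0.27, adjusted p up to 0.14). Itga6 lost its call without any library save replicate 1 of untreated TβRII flox/flox, replicate 1 of H2O2-treated TβRII flox/flox and replicate 3 of H2O2-treated TβRII-/- cells (-0.33 to -0.25, adjusted p up to 0.161). Itga7, by contrast, rose 1.88-fold in TβRII flox/flox and 1.89-fold in TβRII-/- cells, and the 95% interval of the difference of its log2 effects was -0.27 to 0.29. Of the 28 tested adaptors and activators, 5 had a called difference, all positive (Fermt2, Zyx, Tns1, Tns3 and Csk), beside 10.2% over all genes (3.90% positive). With H2O2 in TβRII flox/flox cells 2 of the 28 were called, both lower (Tns1 and Actn1), beside 8.24% over all genes (2.56% lower). Those 2 of 28 are near that share. In the other lists, the difference of the effects was called for 4 of 11 other basement membrane genes, all negative. It was called for 2 of 7 laminin receptors that are not integrins and 1 of 3 hemidesmosome genes, also negative. Of 10 soluble RGD ligands 4 were called, 2 positive and 2 negative. Over all genes 10.2% were called (6.28% negative).

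The lists of partner genes were also read for H2O2. In TβRII flox/flox cells 1 of 11 other basement membrane genes was called, the higher Nid2 with 139 ± 18 untreated and 392 ± 8.85 treated normalized counts, and 1 of 7 laminin receptors that are not integrins, the lower Dmd, the gene of dystrophin (log2 fold change -0.59, SE 0.11, adjusted p = 7.8e-05). Over all genes 8.24% were called. Of 10 soluble RGD ligands 4 were called, the higher Tgfb1 and Edil3 and the lower Ltbp1 and Postn. In TβRII-/- cells, beside 8.33% over all genes, 2 of 11 other basement membrane genes were called, the lower Col4a3 and Col4a4 with log2 fold changes of -0.62 and -0.60. Of the RGD ligands 3 of 10 were called there, the higher Tgfb1 (0.64) and the lower Fn1 (-0.65) and Postn (-1.16), and of the adaptors and activators 3 of 28, the lower Actn1 and Lims2 and the higher Tgfb1i1.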

How the data were processed

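RNA from 12 libraries of PT cells, 3 in each of 4 groups taken from the sample labels, was sequenced by the authors as poly(A) libraries on Illumina instruments. According to the methods and the labels, the authors removed adapters with fastp, used STAR to map the reads on GRCm38.p6 (annotation GENCODE M23), and counted with featureCounts; the methods name a stranded TruSeq kit and the releases of R and Bioconductor, while the other tool versions, the strand setting of the counting and the treatment of overlapping features are not given in the sources used here. The values the authors deposited are whole-number counts per transcript, without normalization, so reads in exons that transcripts share are counted more than once. The tests had been planned for counts per gene, so each gene was represented by its transcript with the greatest total count, and sums over transcripts were an alternative. Transcript identifiers were matched to GENCODE M39 (104820 of 106332), which gave the symbols, and unmatched transcripts (1.22% to 1.28% of each library's counts) were dropped. Gene totals were 15870155 to 20857618 counts per library. Coordinates and promoter windows are those of RefSeq for GRCm38.p6, matched by symbol.

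Counts were analysed with edgeR 4.0.16 in R 4.3.3, with TMM normalization, filterByExpr on the 4 groups (12971 genes), 1 quasi-likelihood fit to all 12 libraries with a mean per group, and Benjamini-Hochberg adjustment over all genes tested. Genes were called at an adjusted p under 0.05 and a fold change of at least 1.5, and differences of the H2O2 effects at an adjusted p under 0.05. Replicates were compared by chi-square, and no pair of a group was as close as sampling noise (3.64 to 12.7 per gene). The fit was tested on simulated counts. Alternatives were DESeq2 1.42.0, its size factors, other filters on low counts, a replicate block, only the compared groups, unadjusted p under 0.01, no fold change limit, sums over transcripts and the loss of each library in turn. The members, the lists of partner genes and of cell type markers, and the rule for named members were chosen with earlier results of these data known. By this rule, each library's value was given for up to 8 called members with the greatest absolute log2 fold change in a comparison and a mean of at least 50 normalized counts in a compared group, and for the chains that pair with them, with Lama1; other members are given by level and change. One member and 1 marker are not reported here, and the counts of members and markers include them. Floors and counts at 0 cover counting error only.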

Additional observations from a re-analysis of the deposited data

Results flagged for a closer look

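For 10 of the 25 tested members the H2O2 effect differed between the lines by the test of the difference itself (edgeR, adjusted p under 0.05), and 9 of them are given here as the log2 effect in TβRII-/- cells minus that in TβRII flox/flox cells. The difference was 0.49 for Itgb6, where H2O2 gave -0.60 in TβRII flox/flox and -0.11 in TβRII-/- cells. It was -0.60 for Itga9 (1.48 and 0.89), -0.55 for Itgb8 (1.40 and 0.85), -0.50 for Itgb4 (0.76 and 0.25) and -0.28 for Itga1 (0.92 and 0.64), with values above 0 in both lines. It was -0.45 for Lama5 (0.33 and -0.12), -0.39 for Itga3 (-0.08 and -0.47), -0.32 for Lamc1 (0.05 and -0.27) and -0.30 for Itga6 (0.33 and 0.03). The calls of Itgb4, Itgb6 and Lama5 held under every alternative run. Those of Itga9 and Itgb8 were lost with counts summed over transcripts (adjusted p = 0.0551 and 0.119). The calls of Itga3, Lamc1, Itga1 and Itga6 were less stable and were lost in 2, 8, 9 and 11 of 18 alternatives. A cause of these differences was not tested.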

How the results depend on the processing

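Over 100 comparisons of the named members, 1449 of 1560 alternative values kept their direction and their side of the limits, 39 lost a call, 40 gained one and 32 changed sign. The counts of called members stayed within 1.5 times the reported ones under the alternatives, with the following exceptions. Without a fold change limit 18 instead of 11 members passed for H2O2 in TβRII flox/flox cells, beside 41.6% of all genes tested. In TβRII-/- cells 13 instead of 6 passed, beside 39.6%. Without replicate 2 of H2O2-treated TβRII-/- cells, 6 instead of 10 differences of the H2O2 effects were called. When single libraries were left out, that count ranged from 6 to 15. With sums over transcripts the fold limit was missed by Itgb8 between H2O2-treated lines (0.57) and by Itga1 with H2O2 in TβRII-/- cells (0.56), and in the difference of the H2O2 effects Itga1, Itga9, Itgb8 and Lamc1 lost their calls (adjusted p of 0.059, 0.0551, 0.119 and 0.0658). The cause was not tested. Values that changed sign were all near 0. For Itgav with H2O2 in TβRII-/- cells the log2 fold change was -0.00128 with DESeq2 size factors, -0.00127 with DESeq2, -0.0141 with only the compared groups, -0.0068 with sums over transcripts, and -0.020 to 0.039 without single libraries. For the difference of the H2O2 effects on Itga7 it was -0.00974, -0.00886 and -0.0122 with DESeq2 size factors, DESeq2 and sums, and -0.11 to 0.13 without single libraries. For Itga5 with H2O2 in TβRII-/- cells it was 0.000872 with at least 10 counts in every library and -0.085 to 0.053 without single libraries. Without single libraries the values also ranged from -0.16 to 0.019 for Itga3 and -0.019 to 0.15 for Lamc1 with H2O2 in TβRII flox/flox, -0.016 to 0.081 for Itga6 with H2O2 in TβRII-/-, -0.11 to 0.10 for Lamb2 between untreated lines, and -0.00016 to 0.27 for Lama3 and -0.098 to 0.046 for Itgb5 in the difference of the effects.

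Samples with the same replicate number did not deviate together (r from -0.10 to 0.058, with 9 of 36 best matches on the own number), so the number was not taken as a pairing. With the replicate number as a block, 17, 17, 11 and 6 members were called in the 4 comparisons and 8 instead of 10 in the difference of the effects, where Itga1 and Itga6 were lost.

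With 3 libraries in a group and at most 12 counts per library, the 11 members that were not tested give no comparison at this depth. Since overlapping features were counted by settings that are not given, members that share exons with other genes, such as Itga1, Itga10, Itgam and Itgb4, are uncertain.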

Other observations

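The annotation holds a long and a short transcript of Lama3 (12225 and 7228 exon bases, of which 7031 are shared), and the deposited counts give each its own total. In untreated TβRII flox/flox libraries the short transcript had 61.1%, 68.8% and 57.4% of the counts of the long one, and in untreated TβRII-/- libraries 81.2%, 83.9% and 85.0%. After H2O2 the shares were 67.5%, 58.8% and 71.3% in TβRII flox/flox and 80.7%, 83.1% and 84.4% in TβRII-/- libraries. The shares were higher in every TβRII-/- library than in every TβRII flox/flox library. Counts of the long transcript beyond those of the short one came to 46.3, 49.0 and 49.5 normalized counts in untreated TβRII flox/flox libraries and to 175, 142 and 144 in untreated TβRII-/- libraries. With shared exons counted on both transcripts these shares describe where along the gene the reads lay and not the number of molecules of each form, and the difference was not tested.

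Besides the transcript that stood for its gene, 69 further transcripts of the 17 members called between untreated lines had a mean of at least 10 normalized counts, and 68 of them differed in the same direction as their gene, the exception being a transcript of Itgb6. They share reads with each other and are not independent. For H2O2 in TβRII flox/flox cells 44 of 46 did, with a transcript of Itgb4 among the exceptions.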
